A study of Mytilus galloprovincialis with 12 samples.

Results

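The transcriptional response of mussel digestive gland to the pesticide chlorpyrifos (CHP) was set against the response to the hormone 17β-estradiol (E2). The comparison uses 8 of the 12 arrays of the series, 4 for CHP and 4 for E2, and all 1920 cDNA clones printed on the array. For each clone, the log2 ratio of treated over vehicle RNA on the E2 arrays was subtracted from that on the CHP arrays, so that a positive difference means a higher ratio with CHP.

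CHP mussels (*Mytilus galloprovincialis* females) were kept for 4 days in water with 4.5 mg/l CHP, and E2 mussels received 25 pmol E2 by injection into the posterior adductor muscle. Vehicle mussels spent 4 days with 0.02% DMSO and after 3 days received a 50 µl injection of sea water with 0.05% ethanol, and the methods describe the same sham injection for CHP mussels. The times are those of the labels; the methods give a shorter CHP exposure, followed by clean water after the injection. The remaining 4 arrays, from mussels exposed to CHP for 3 days and then injected with E2 (CHP/E2), entered the fit and are given only beside the clones that differed. Each array carried RNA from 1 pool of 6 digestive glands against vehicle RNA, so n counts arrays, each with a pool of animals. By the scan names, E2 replicates 2 and 4 may share a pool, as may CHP/E2 replicates 3 and 4. The agent, its route and the time since exposure began cannot be told apart. In such extracts, fewer cells of a type and less RNA per cell cannot be told apart either.

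Chlorpyrifos is an organophosphate insecticide. Its oxon metabolite blocks acetylcholinesterase, the enzyme that breaks down the transmitter acetylcholine, and the parent compound is processed by oxidation, hydrolysis and conjugation. E2 is the main natural estrogen of vertebrates. It acts through nuclear receptors that bind DNA and also through rapid signals at the cell membrane, and its mode of action in bivalves is less settled. The digestive gland of mussels takes up and digests food in lysosome-rich cells, stores lipid and handles xenobiotics.

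The files name the clones by ID only, and 0 of the 1920 IDs occur in the RefSeq gene table used here. No gene name, role or sequence is therefore given for any clone, the tissue could not be checked against marker genes, and the numbers below count clones and not genes, since clones of the same transcript cannot be recognised. Each clone sits on 2 spots, which were averaged. The median spot on the CHP arrays was 1.48 to 2.37 times its local background for treated RNA and 1.21 to 3.92 times for vehicle RNA, and the E2 arrays had 1.77 to 3.29 and 1.33 to 2.71 times. Between 62.9% and 85.2% of the clones exceeded background by 2 of its SDs on the CHP arrays, with the lowest share on CHP replicate 2, and between 71.3% and 85.7% did so on the E2 arrays.

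Few clones were called as different between CHP and E2. The limma test called 4 of the 1920 clones (0.208%), and all 4 were higher with CHP. A clone was called at B over 0, where B is the log-odds that the clone differs when a proportion of 0.01 of all clones is taken to differ beforehand. At a Benjamini-Hochberg adjusted p under 0.05 the calls were 3 (0.156%). At an unadjusted p under 0.05 there were 159 clones (8.28%), of which 92 (4.79%) were higher and 67 (3.49%) lower with CHP. The same fit called 40 clones for CHP against vehicle (2.08%), 26 of them up-regulated, and 8 for E2 against vehicle (0.417%), 4 of them up-regulated. These 2 counts rest on the same vehicle condition, and the difference between the treatments is tested only by the first. Data were simulated with the spread of each clone, noise independent between clones and arrays, and a share of changed clones above 0.01. There the fit called 14 of 67 clones with a true difference of 0.5. It called 52 of 67 at a difference of 1 and 63 of 66 at 2. On the arrays themselves clones varied together, so these rates may not hold for them. Few calls still do not show that few clones differ. The called clones and their direction depended on the scaling. With the spread of the arrays made equal, 4 clones were called, 1 higher and 3 lower with CHP. Only the 1 higher clone was among the 4 called without this scaling.

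Clone Myt01-008E11 had the largest called difference. CHP replicates 1 to 4 had log2 ratios of 1.55, 1.91, 1.83 and 2.00, against 0.26, 0.22, 0.12 and 0.23 on the E2 arrays. The lowest CHP array was 1.29 above the highest E2 array, and none of the E2 arrays came near the CHP level. The difference was 1.61 (standard error 0.19, 95% interval 1.18 to 2.04), a 3.06-fold higher ratio with CHP, with an adjusted p of 0.00439 in limma and B of 3.44. This transcript was dim, and its vehicle RNA stood above background on 3 of the 4 CHP arrays and 3 of the 4 E2 arrays, whereas its treated RNA did so on all 8.

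Clone Myt01-013D11 had the largest B of all clones, 3.47, with a smaller difference. Its ratios were 0.80, 0.61, 0.66 and 0.68 with CHP, against -0.16, -0.06, 0.01 and 0.02 with E2. The CHP pools were close to each other, with an SD of 0.08, as were the E2 pools with an SD of 0.08. The ratio was 1.67-fold higher with CHP, a difference of 0.74 (standard error 0.09, 95% interval 0.54 to 0.93, adjusted p = 0.00439).

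Clone Myt01-001F11 had ratios of 0.85, 0.89, 0.67 and 0.74 on the CHP arrays, against -0.11, 0.19, -0.30 and -0.11 on the E2 arrays. The E2 pools scattered around 0 and all stayed below the CHP pools. The difference was 0.87 (standard error 0.12, 95% interval 0.61 to 1.13), a 1.83-fold higher ratio with CHP, with an adjusted p of 0.00993.

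The call of the fourth clone, Myt01-012G07, was the least firm. Ratios of 0.53, 0.77, 0.52 and 1.05 with CHP stood against -0.06, 0.09, -0.04 and 0.01 with E2. The groups did not overlap, but the CHP pools spread over an SD of 0.25 and the E2 pools over 0.07. The difference was 0.72 (standard error 0.14, 95% interval 0.41 to 1.03), and its adjusted p of 0.168 missed the threshold that the other 3 passed. Its B of 0.31 was over 0 in 18 of 38 other ways of processing the data.

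**Figure D1:**
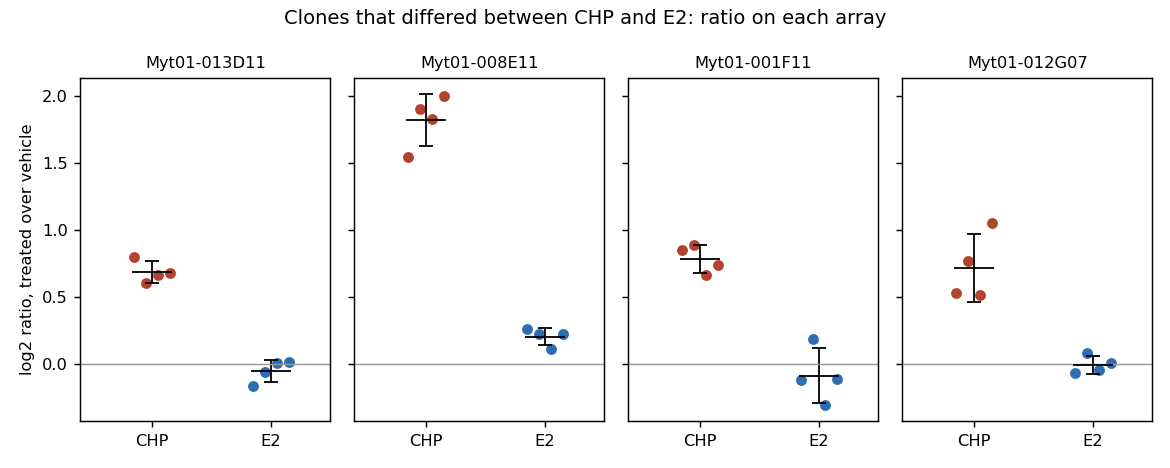
Log2 ratio of treated over vehicle RNA on each array for the 4 called clones, with CHP to the left of E2. Points are arrays (4 per group, each with a pool of 6 mussels), and the bars give the mean and SD. By the scan names, E2 replicates 2 and 4 may share a pool. For every clone the 4 CHP arrays lie above the 4 E2 arrays, and Myt01-008E11 has the largest gap, 1.29.

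On the side of each treatment, these clones had moved with CHP and not detectably with E2. They were chosen by CHP minus E2 on these same arrays, so their CHP and E2 values against vehicle are no further evidence. The mean ratio with CHP was 1.82 for Myt01-008E11, 0.69 for Myt01-013D11, 0.79 for Myt01-001F11 and 0.72 for Myt01-012G07, and B against vehicle was 8.86, 7.26, 5.71 and 3.33 in the same order. The mean ratio with E2 was 0.21, -0.05, -0.08 and -0.00, and B against vehicle was between -6.09 and -5.02. With CHP/E2 the means were 2.00, 0.44, 0.56 and 0.41, and the first 3 were called against vehicle (B of 8.67, 3.19 and 2.65) while Myt01-012G07 was not (B of -1.10).

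The separate channels showed on which side of the ratio the difference lay. In treated RNA, the mean log2 signal of Myt01-008E11 was 9.13 on the CHP arrays and 7.32 on the E2 arrays, a difference of 1.81 (standard error 0.16, adjusted p = 0.000438 in limma). In vehicle RNA, the same clone had 7.31 on the CHP arrays and 7.11 on the E2 arrays, a difference of 0.20 (standard error 0.15, adjusted p = 0.999). Myt01-013D11, Myt01-001F11 and Myt01-012G07 differed by 0.92, 0.70 and 0.71 in treated RNA and by 0.18, -0.17 and -0.01 in vehicle RNA. Those 3 treated differences had adjusted p-values of 0.662 to 0.866. Over all clones, 1 was called in the treated channel and 0 in the vehicle channel by limma, against 62 and 37 clones at an unadjusted p under 0.05.

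The 2 spots of each called clone gave nearly the same answer. The CHP minus E2 difference was 1.61 on both spots of Myt01-008E11, 0.73 and 0.74 for Myt01-013D11, 0.85 and 0.90 for Myt01-001F11 and 0.72 on both for Myt01-012G07. The median gap between spots over all clones was 0.05. Among the named clones the gap was largest at Myt01-007D08, whose spots gave -0.39 and -0.14.

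Some CHP and E2 arrays shared a slide or, by the names of the scans, a vehicle pool. CHP replicate 3 and E2 replicate 4 lay on slide 7, both with the treated RNA in Cy3. CHP replicate 1 and E2 replicate 2 carried vehicle pool number 2, and CHP replicates 2 and 4 and E2 replicate 3 carried number 3. Across these 4 matched pairs the difference ran from 1.32 to 1.88 for Myt01-008E11, from 0.60 to 0.86 for Myt01-013D11, from 0.66 to 1.19 for Myt01-001F11 and from 0.45 to 1.10 for Myt01-012G07. The sign of these pairs follows from groups that do not overlap and is no further evidence. With the slide as a fixed block, the difference rests on slide 7 alone, the only slide with both treatments, and thus on 1 CHP array against 1 E2 array. It was 1.60, 0.65, 0.78 and 0.50 there, and none of the 4 clones was called (adjusted p of 0.174 to 0.481). With vehicle pool as a fixed block on the 9 arrays that carry a number, only Myt01-013D11 was called (difference 0.76, adjusted p = 0.191), and the other 3 had differences of 1.77, 0.92 and 0.84.

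Outside the threshold, the nearest clones were Myt01-015E11, Myt01-006C01 and Myt01-002B07. Myt01-015E11 had ratios of 0.53, 0.01, 0.29 and 0.44 with CHP, against -0.31, -0.12, -0.05 and -0.13 with E2. Its difference of 0.47 (95% interval 0.23 to 0.71) reached B of -0.77. Of the others, Myt01-006C01 had the largest B of all clones lower with CHP, -0.88, with ratios of -0.08, -0.12, -0.41 and -0.60 with CHP, against 0.26, 0.31, 0.18 and 0.03 with E2. Thus no clone with a lower ratio in CHP mussels passed the threshold.

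Groups that did not overlap were about as common in either direction. All 4 CHP arrays exceeded all 4 E2 arrays at 43 clones (2.24%), and all 4 lay below them at 44 clones (2.29%). An unadjusted p under 0.05 went with 31 of the first and 21 of the second. The 10 clones of each direction with the largest moderated t are described here, the 4 called clones among them. The 6 uncalled clones with CHP above E2 had differences of 0.31 to 0.90 and adjusted p-values of 0.390 to 0.405, and the 10 with CHP below E2 had differences of -1.29 to -0.25 and adjusted p-values of 0.390 to 0.501.

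Myt01-001E05 and Myt01-001G05, uncalled clones above E2, were called for CHP against vehicle. Myt01-001E05 had ratios of 0.85, 0.93, 1.70 and 1.48 with CHP, against 0.85, 0.26, 0.12 and 0.15 with E2. One E2 pool, replicate 1, almost reached the lowest CHP pool, and the difference was 0.90 (95% interval 0.37 to 1.42). Myt01-001G05 had ratios of 0.43, 0.61, 1.14 and 0.94 with CHP, against 0.27, 0.17, 0.12 and 0.02 with E2, a difference of 0.63 (95% interval 0.29 to 0.97). Both had a positive B for CHP against vehicle, 3.50 and 3.34, so that passing against vehicle did not carry over to the test against E2. As both were picked by CHP minus E2 on these same arrays, their calls against vehicle are no further evidence. The other 4 uncalled clones, Myt01-015E11, Myt01-010B01, Myt01-015G04 and Myt01-009H10, had mean ratios of 0.20 to 0.32 with CHP and -0.29 to -0.11 with E2.

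Among the 44 clones whose CHP arrays all lay below the E2 arrays, Myt01-002B07 was the only one with a difference of 1 or more. Its ratios were -0.21, 0.39, -1.42 and -0.57 on the CHP arrays, against 0.71, 1.01, 1.09 and 0.53 on the E2 arrays. All E2 pools were above 0, while the CHP pools lay on both sides of it with an SD of 0.76. The ratio was 2.44-fold lower with CHP, a difference of -1.29 (95% interval -1.97 to -0.60, adjusted p = 0.390). The same direction appeared in treated RNA, with -0.88 (standard error 0.25), and vehicle RNA differed by 0.41 (standard error 0.33). It was called in 6 of 39 other ways of processing, 1 of which left out CHP replicate 2.

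Myt01-014B04 and Myt01-014B05 were called for E2 against vehicle at B over 0 and stayed near 0 with CHP. Neither had an adjusted p under 0.05 for E2 against vehicle (0.115 and 0.100 in limma). The clones of this paragraph were picked by CHP minus E2 on these same arrays. Their values against vehicle are therefore no further evidence. Myt01-014B04 had ratios of 0.14, 0.01, -0.34 and -0.08 with CHP, against 0.50, 0.33, 0.22 and 0.74 with E2, and B for E2 against vehicle was 0.21. Myt01-014B05 had ratios of 0.09, 0.15, -0.25 and -0.10 with CHP, against 0.33, 0.39, 0.43 and 0.81 with E2, and B was 0.46. For both, E2 replicate 4 was the highest array and CHP replicate 3 the lowest, and these share slide 7. Their differences of -0.51 each (95% intervals -0.80 to -0.23 and -0.82 to -0.21) were not called. The remaining clones below E2 (Myt01-006C01, Myt01-007D08, Myt01-006E10, Myt01-004E01, Myt01-005C08, Myt01-006E02 and Myt01-008C12) had mean ratios of -0.41 to -0.04 with CHP and -0.12 to 0.45 with E2. Only Myt01-006E02 of these was called for CHP against vehicle (B of 2.28), at a mean ratio of -0.41 with CHP and -0.12 with E2.

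**Figure D2:**
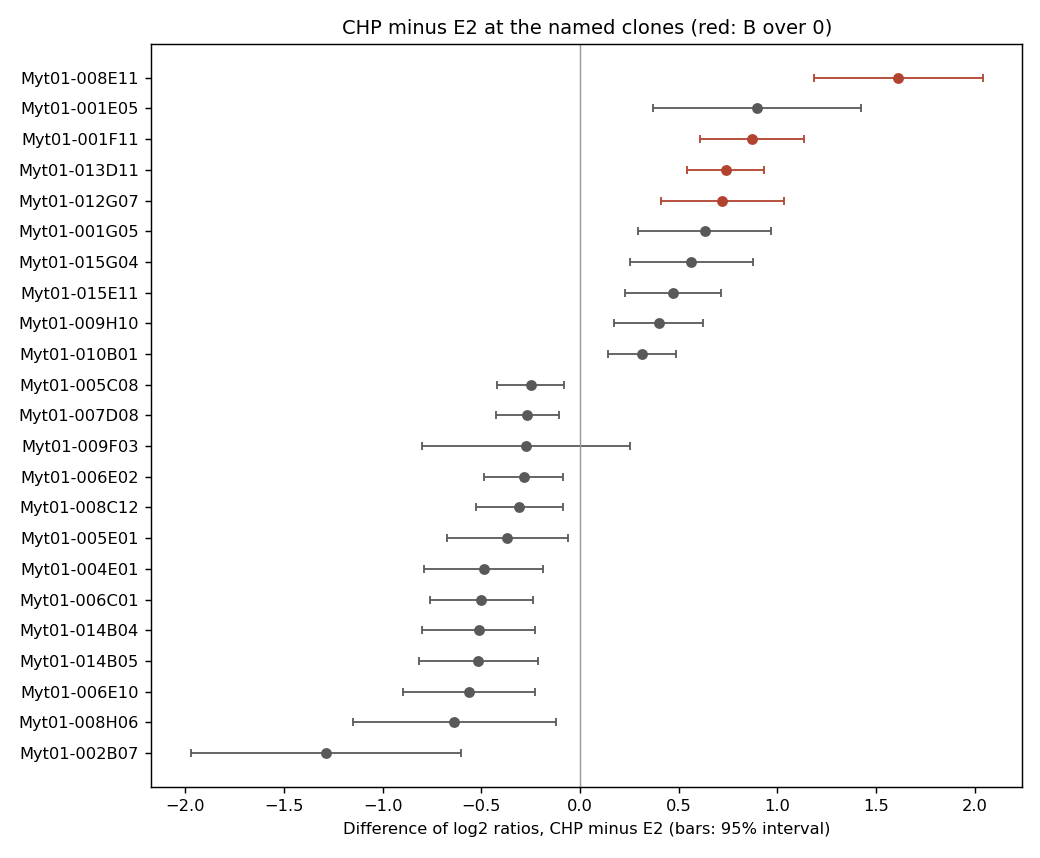
Difference of log2 ratios, CHP minus E2, for 23 of the 26 clones named in the text (points) with 95% intervals from limma (bars), ordered from the highest at the top; the 3 clones with the largest mean differences, whose intervals are wider than the axis, are left out. The 4 called clones are in red and lie between 0.72 and 1.61. The interval of Myt01-009F03 is the only one plotted that includes 0.

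Of the clones that an earlier account of these data had singled out for single treatments, Myt01-008E11 was the one that differed by the test. Myt01-008H06 was lowered by both, with ratios of -2.16, -1.41, -1.96 and -2.29 with CHP, against -0.86, -1.49, -1.49 and -1.42 with E2. Both treatments were called against vehicle (B of 7.84 for CHP and 3.84 for E2). The mean was -1.95 with CHP and -1.32 with E2, a difference of -0.64 (95% interval -1.15 to -0.12, adjusted p = 0.533), and CHP replicate 2 overlapped the E2 arrays. With CHP/E2 the mean ratio was -0.00.

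Myt01-009F03 was also lowered by both. The ratios were -1.42, -1.19, -1.90 and -1.86 with CHP, against -0.70, -1.44, -1.51 and -1.62 with E2, and the groups overlapped. The difference was -0.27, with a 95% interval of -0.80 to 0.25 (adjusted p = 0.721). That interval leaves room for a fall deeper by 0.80 with CHP or by 0.25 with E2, and under scaling between arrays the difference was 0.11.

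Myt01-005E01 was called for E2 against vehicle (B of 3.20) and not for CHP (B of -2.12). Its ratios were 0.37, 0.29, 0.56 and 0.18 with CHP, against 0.53, 0.59, 0.66 and 1.09 with E2. The highest CHP array exceeded the lowest E2 array by a little. The difference of -0.37 (95% interval -0.67 to -0.06, adjusted p = 0.533) was not called, although the interval leaves out 0. The 4 matched pairs ran from -0.53 to -0.22, but they reuse these arrays and their sign is no further evidence. It was called with scaling between arrays (-0.50, B of 0.67) and with a dye term (-0.37, B of 0.01), so that the call at this clone depended on the processing.

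The largest mean differences belonged to clones that varied most. Myt01-015C01 had ratios of 1.99, -1.31, 5.67 and 4.53 with CHP, against -2.14, -0.14, -0.20 and 0.13 with E2. CHP replicate 2 lay among the E2 arrays, and the other 3 CHP arrays stood far above. The difference was 3.31, but its 95% interval of -0.23 to 6.85 included 0 (adjusted p = 0.533). Myt01-015C07 (2.99) and Myt01-007H10 (2.99) had the same shape, with CHP replicate 2 at -1.20 and -1.47 and replicate 3 at 5.26 and 5.31. In the matched pairs these 3 clones were higher with CHP in 3 of 4, and the pair that shares vehicle pool 3 with CHP replicate 2 ran the other way, at -1.26 to -1.11.

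At those 3 clones the difference lay in vehicle RNA at least as much as in treated RNA. Treated RNA differed by 1.48, 1.12 and 0.76 between CHP and E2 arrays, and vehicle RNA by -1.83, -1.87 and -2.23. The standard errors were 0.61 to 0.75 for treated RNA and 0.90 to 1.04 for vehicle RNA. In limma these vehicle differences had unadjusted p-values of 0.106, 0.061 and 0.048 and an adjusted p of 0.999, and none was called. Vehicle mussels had the same labelled treatment on all arrays, so a difference between vehicle signals would be one between the pools or arrays used as reference. Which of them was not tested.

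**Figure D3:**
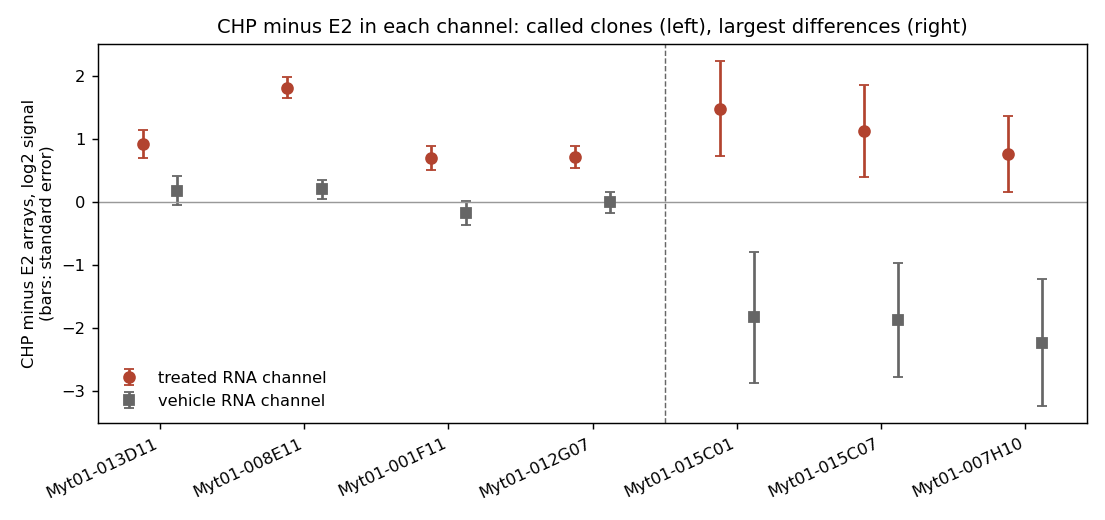
CHP minus E2 difference in log2 signal of treated RNA (circles) and vehicle RNA (squares), with standard errors, for the 4 called clones and the 3 clones with the largest mean difference in ratio. Called clones differ by 0.70 to 1.81 in treated RNA and by -0.17 to 0.20 in vehicle RNA, while the others differ by -2.23 to -1.83 in vehicle RNA.

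A group of 56 clones, delimited after the values were seen, had a residual SD over 1 between arrays of a group. None was called, against 0.208% of all clones. None had groups that did not overlap, against 2.24% (CHP above) and 2.29% (CHP below) of all clones. At such shares few of 56 clones would be reached, and the cut on SD itself widens the interval of a difference. Their median difference was 1.96 (lowest -1.90, highest 3.31), and 49 of them had the higher mean with CHP. Their median ratio was 1.45, -0.58, 3.36 and 2.98 on CHP replicates 1 to 4, against -1.23, -0.01, -0.07 and 0.41 on E2 replicates 1 to 4. CHP replicates 2 and 4 lay on opposite sides of 0 although both carry vehicle pool number 3. The median difference was 0.77 in treated RNA and -0.97 in vehicle RNA, whereas the median vehicle difference of all clones was -0.02.

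**Figure D4:**
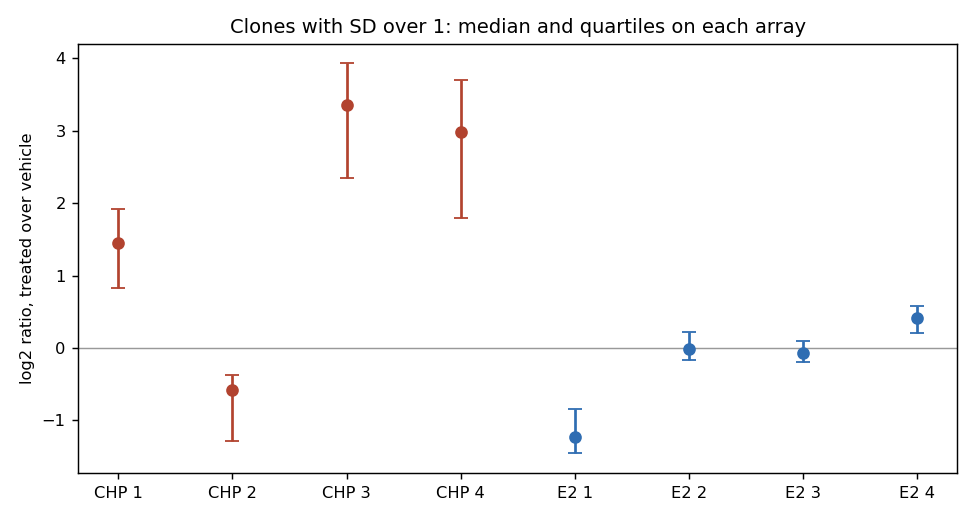
Log2 ratio of treated over vehicle RNA of the 56 clones with a residual SD over 1 on each CHP and E2 array; points are medians over clones and bars run between the quartiles. CHP replicate 2 has a median of -0.58, below the 1.45 to 3.36 of the other CHP arrays, and the E2 medians run from -1.23 to 0.41.

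The likeness of the arrays differed with and without these clones. Across clones, which are no independent replicates and share array and dye, the correlation between CHP arrays ran from -0.31 to 0.84, and from 0.08 to 0.65 without the 56 clones. Between E2 arrays it ran from 0.08 to 0.46 and from 0.13 to 0.51. CHP replicates 1 and 4 correlated with E2 replicate 1, which has the same dyes, at -0.35 and -0.46, and at 0.05 and -0.08 without the 56 clones. CHP replicate 2, also with the same dyes, correlated with E2 replicate 1 at 0.39, and at 0.22 without these clones. Since the labels state the dyes, the direction of the ratios was kept. None of the 4 called clones is among the 56. Leaving these out can change a call only through estimates that the fit shares between clones, and the same 4 were called.

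Differences of 0.5 or more were seen at 148 clones with CHP above and 41 with CHP below E2, and 4 of these 189 clones were called. At a size of 1 or more there were 67 and 7 clones, of which 1 was called and 51 belonged to the 56 clones of high spread. In 5 of the 74 clones the groups did not overlap. The median difference over all clones was -0.00 and the median size of the difference 0.12.

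**Figure D5:**
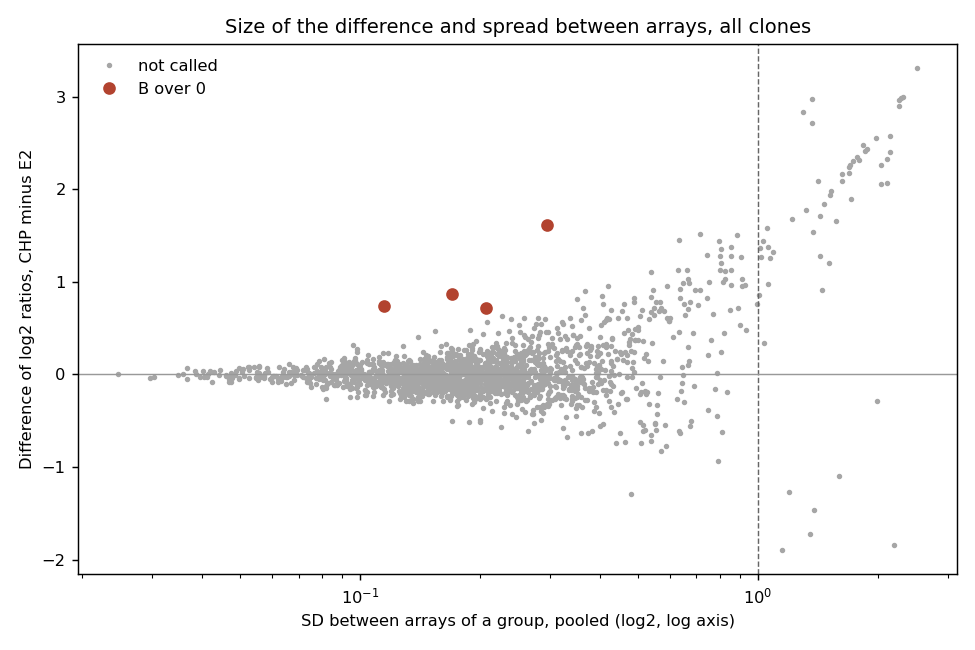
CHP minus E2 difference of each of the 1920 clones against the SD between arrays of a group pooled over groups (log axis). Red points are the 4 called clones; the dashed line marks an SD of 1, and the 56 clones to its right reach differences of 3.31 without a call.

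Ratios on the CHP arrays varied more than those on the E2 arrays. The median SD between the 4 arrays of a group was 0.19 for CHP and 0.15 for E2, and the SD was larger with CHP at 1225 of 1920 clones (63.8%). An SD over 1 was found at 68 clones with CHP and 16 with E2, 13 of them shared. The spread of a ratio holds that of the treated pools, the vehicle pools and the arrays, and their parts were not tested; by the scan names, E2 replicates 2 and 4 may come from a single pool. The median 95% interval of a difference extended 0.30 to either side. For 1206 clones (62.8%) the interval lay within -0.5 and 0.5, and for 1704 (88.75%) within -1 and 1, so that a larger difference was outside the interval at those clones. For the other clones, the 4 called ones included, the interval reached past 0.5 in size. Without CHP replicate 2 the count of calls was 16 (14 higher and 2 lower with CHP) in place of 4, and 3 of the 4 clones described above were among them.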

How the data were processed

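Dual-colour arrays of digestive gland RNA were analysed, 12 in all with 4 each for CHP, E2 and CHP/E2. The authors deposited scanner intensities, the mean of each spot and the median of its local background in Cy5 and Cy3, without normalization. A deposited table of log2 ratios, normalized by the authors with limma in a way not given in the sources used here, served as an alternative; it correlated at 0.881 or more with the ratios used for CHP and E2. No column belonged to other samples (0 left out).

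The background correction was normexp with an offset of 50. Loess was then run on each array, giving weight 0 to 720 spots that were blank or for alignment. Ratios were turned on the arrays with treated RNA in Cy3 (replicate 3 of CHP, replicate 4 of E2 and of CHP/E2). The 2 spots were averaged. The 1920 clones included 104 without a deposited value. One limma fit (lmFit, eBayes) on 12 arrays gave the difference CHP minus E2, called at B over 0, the methods' threshold, with Benjamini-Hochberg adjusted p beside it over all clones. Tests are two-sided. Signals of single channels were scaled with Aquantile. The software was limma 3.58.1 with statmod 1.5.0 in R 4.3.3, and the fit was tested on simulated data.

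The methods state that each condition had 4 biological replicates, each on its own array. By the scan names, however, E2 replicates 2 and 4 may come from a single pool, and so may CHP/E2 replicates 3 and 4. The p-values therefore measure the spread between these arrays. Slide and vehicle pool numbers came from the names of the scans. Named clones were all those called; the 10 of each direction with the largest moderated t among clones whose groups did not overlap; 4 of an earlier account; the 3 largest mean differences; and the 3 nearest to the threshold. The comparison, clones and lists were chosen with earlier results of these data known. The lists of gene families and cell type markers could not be applied, as clones have no names here. The alternatives were background correction, normalization, source table, filters, duplicate spots, dye, array weights, arrays in the fit, slide, pool and replicate blocks, threshold and single arrays or plates left out.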

Additional observations from a re-analysis of the deposited data

Results flagged for a closer look

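In 52 groups of 4 arrays (the CHP and the E2 ratios of the 26 named clones), 2 had an array far from the other 3, where chance gives about 1 in 20 groups. Both were on E2 replicate 1. Myt01-008H06 had a log2 ratio of -0.86 there, against -1.49 to -1.42 on the other E2 arrays. Myt01-015C01 had -2.14 there, against -0.20 to 0.13 on the others. Without that array neither clone was called for CHP minus E2.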

How the results depend on the processing

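The count of 4 called clones was recomputed under 39 alternatives and moved by over 1.5 times in these. It was 1 when median centring replaced loess, 18 with duplicate spots kept separate (16 higher and 2 lower with CHP), 9 with a dye term (5 and 4), 13 with slide as a fixed block (9 and 4, none shared with the 4; 1 array against 1 on slide 7), 1 with vehicle pool as a fixed block and 11 with a prior proportion of 0.05 (8 and 3). Leaving out 1 array gave 3 to 16 calls, the 16 without CHP replicate 2. With the replicate number as a block 4 clones were called (3 higher and 1 lower), 3 of them shared. The numbers do not pair the arrays: deviations of same-numbered CHP and E2 arrays correlated at -0.18 to -0.01 over 4 pairs, and not every array correlated best with its own number. The deposited table called the same 4 clones. Of the called clones, none changed direction in 38 alternatives. Many alternatives alter only the standard error, the filter or the threshold, so that the difference itself stays as it was. Leaving out 1 array cannot turn groups that do not overlap. A kept direction is therefore largely fixed beforehand, here and for the named clones below. Myt01-008E11 and Myt01-013D11 were called in 35 each, Myt01-001F11 in 33 and Myt01-012G07 in 18. Over the 26 named clones, 942 of 1000 values kept direction and side of the threshold, 31 lost a call, 26 gained one, and 1 turned, Myt01-009F03 at 0.11 with scaling between arrays. The cause was not tested. Leaving out the 56 clones of high spread and a robust fit were added after seeing the data, and each called 4 clones. Vehicle RNA alone is given with the results. Signal over background limits dim clones: 1073 clones were above background on all 8 arrays.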

Other observations

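Besides Myt01-008E11 and Myt01-002B07, 3 clones had a difference of 1 or more with groups that did not overlap; they were chosen after their values were seen. Myt01-008H08 had ratios of -0.41, -0.53, 0.68 and 0.76 with CHP, against -0.57, -1.02, -1.44 and -0.87 with E2 (difference 1.10, adjusted p = 0.489 in limma). Here the E2 arrays lay below 0 and the CHP arrays on both sides of it. Myt01-011C02 differed by 1.35, with ratios of 0.11 to 1.85 on the CHP arrays and -0.73 to -0.21 on the E2 arrays. Myt01-016H12 differed by 1.28, with ratios of -0.09 to 1.35 on the CHP arrays and -1.74 to -0.10 on the E2 arrays. The adjusted p was 0.533 for both.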
